A study of Mus musculus with 24 samples.

Results

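B16F1-GFP-DB#1 is a mouse melanoma line that the study describes as a second generation of dormant cells recovered from the brain, and it was compared with B16F1-GFP-D, the first-generation dormant line. All 8 arrays of these lines were taken by the cell line named in their labels, 4 for DB#1 and 4 for D, out of 24 arrays of 7 lines. Both lines derive from B16F1, a mouse melanoma line, carry GFP in their names, were isolated from syngeneic mice in a dormancy model based on immunotherapy, and were then grown in culture before total RNA was taken. The parental line B16F1-GFP-M (3 arrays) and the other brain-derived lines B16F1-GFP-DB#2 (3 arrays) and B16F1-GFP-DB#3 (3 arrays) serve here as reference levels. Each line is a single isolate, so a passage through the brain and the properties of that isolate cannot be told apart. The labels do not say whether the arrays of a line came from separate cultures, and p-values then measure only the spread between these samples, which may be technical.

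Tumour cell dormancy is a state in which residual cells persist for long periods without overt growth, and the signals known to bear on it include growth-arrest ligands, the extracellular matrix and contact with immune cells. Melanoma cells that lodge in the brain meet astrocytes, microglia and myelinating cells, and they can express genes shared with the neural crest lineage from which melanocytes come. The comparison asks which transcripts separate a line that went through a second stage in the brain from the line it is set against.

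A value below is a level on the log2 scale, the processed spot signal less that array's 75th percentile, so 0 is the signal that 75% of probes do not exceed. A difference is DB#1 minus D on that scale. A gene was taken as measured on an array where the image software marked its probe well above background. One array stood apart before any comparison. On D replicate 3 the share of probes well above background was 89.9%, against 43.6% to 53.8% on the other 23 arrays, and it was the 1 array of 24 that the software marked for evaluation. Its dim probes were bright: among genes with a DB#1 mean level of -4 or less, the median of D replicate 3 minus the other D arrays was 2.50, and among genes above 4 it was -0.58. Differences and marker sums below that this array moved most are also given without it. Where none of the compared arrays of a line read a gene above background, the value is a bound (at least N-fold). It sets each array of that line at the lowest signal well above background on it, or at the probe's own signal if that is higher. An adjusted p beside a bound comes from the fit to the signals themselves, so it does not test the bound. D replicate 1 had the lowest share of the 24, 43.6%, and the highest net signal of negative controls, 36.1 intensity units.

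DB#1 and D differed in few transcripts. Of 20203 genes tested, 96 passed a Benjamini-Hochberg adjusted p of 0.05 in limma, which is 0.475% of those tested, with 78 higher in DB#1 (0.386%) and 18 lower (0.0891%). At least a 2-fold difference was reached by 64 of the higher and 14 of the lower genes. The median difference was 1.44 over the higher genes and -1.43 over the lower genes, against 0.05 over all genes tested. Of the 78 higher genes, 24 were above background on fewer than 4 D arrays, and 22 of these were read on D replicate 3. Those 24 entered the test through DB#1 alone, so their differences rest in part on D signals at background. Among the 18054 genes above background on every array of both lines, 62 passed, 52 higher and 10 lower. Leaving out D replicate 3 gave 105 genes, 91 higher and 14 lower, of which 81 were among the 96. A further 24 genes passed only without that array, and 15 passed only with it. Without D replicates 1 and 3 together, 103 genes passed, 69 of them among the 96. A fit of the 8 arrays alone, which takes the spread from these lines only, called 34 genes, 33 higher and 1 lower, with 28 of them among the 96. Its SE was larger than in the fit of all 24 arrays for some genes (Gas6 0.75 against 0.61, Rab19 0.63 against 0.47). For others it was smaller (Clu 0.37 against 0.41). Why fewer genes passed was not tested. Of the genes named below, Rab19, Gas6, C1ql3, Gm15910, Fitm1, Enpep, Capn6, Phf11d, Spint1, Ptgfrn and Emilin1 among the rises, and all 9 named falls, did not pass in the fit of the 8 arrays alone.

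**Figure D1:**
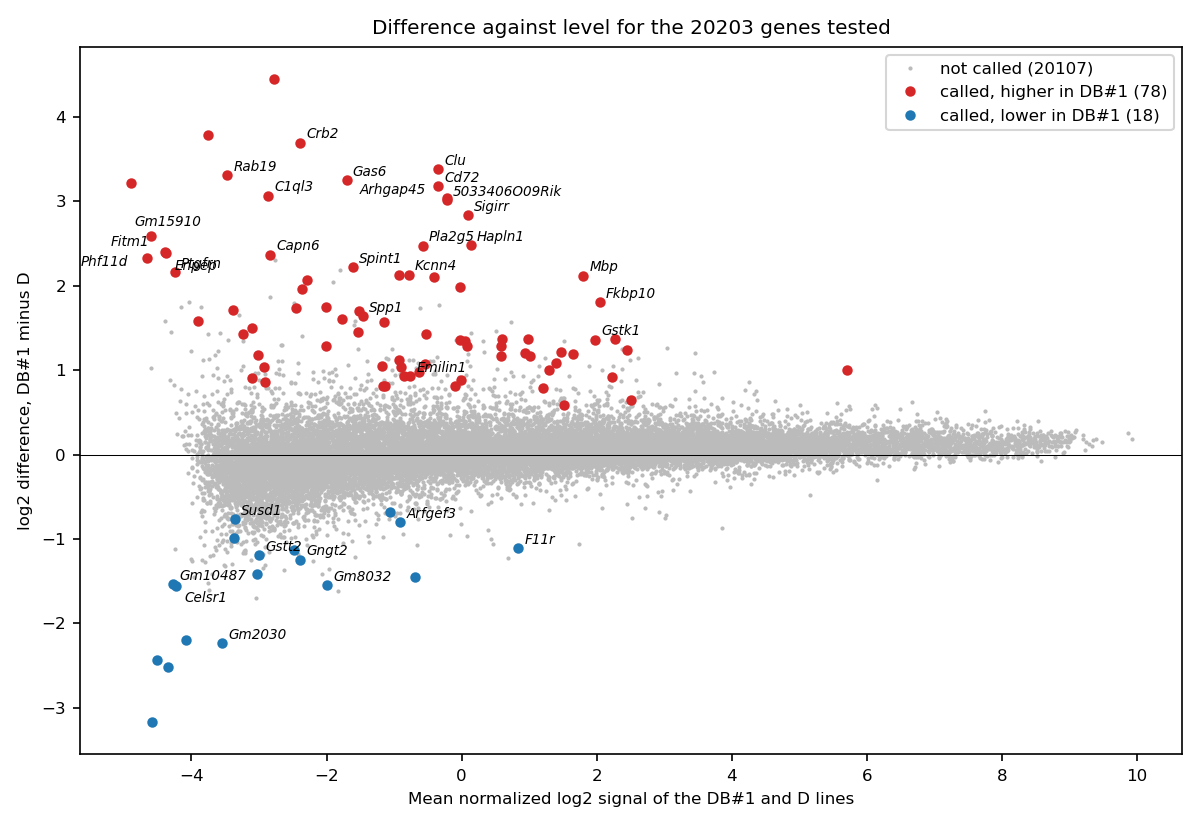
Each point is 1 of the 20203 genes tested, with the mean normalized log2 signal of the DB#1 and D lines on the horizontal axis and the log2 difference, DB#1 minus D, on the vertical axis. The 78 higher (red) and 18 lower (blue) genes sit outside a band that is widest among dim genes, and the named genes are labelled.

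The start regions of Crb2 and Gas6 are shown because these are among the largest rises and both regions hold a GC box, the most frequent motif among the genes searched. Each runs 5′ to 3′ from 250 bases before to 50 bases after the annotated start, in RefSeq on GRCm38.p6. Capitals mark a match on either strand to the GC box GGGCGG, the AP-1 motif TGANTCA, the E-box CACGTG, the E-box CATGTG or the cAMP response element TGACGTCA.
Crb2 (chr2:37775999-37776298, + strand): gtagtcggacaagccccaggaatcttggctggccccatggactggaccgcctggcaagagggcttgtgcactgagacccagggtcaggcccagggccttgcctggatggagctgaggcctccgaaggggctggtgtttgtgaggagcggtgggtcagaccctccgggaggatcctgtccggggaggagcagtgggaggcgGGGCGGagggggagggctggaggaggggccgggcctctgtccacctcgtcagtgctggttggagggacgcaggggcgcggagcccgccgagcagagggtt
Gas6 (chr8:13494486-13494785, - strand): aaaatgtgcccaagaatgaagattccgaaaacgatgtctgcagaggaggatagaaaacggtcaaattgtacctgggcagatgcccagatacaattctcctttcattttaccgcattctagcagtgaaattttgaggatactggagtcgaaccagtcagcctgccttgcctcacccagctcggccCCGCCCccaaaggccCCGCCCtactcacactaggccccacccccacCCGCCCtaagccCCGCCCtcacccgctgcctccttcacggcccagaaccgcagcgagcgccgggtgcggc
Gas6 held 4 copies of the GC box and Crb2 held 1, and no match to these motifs was found in the corresponding regions of Rab19 and Cd72. Of the 78 called genes with a symbol, 59 had a promoter in the table. Among the 53 of these that were higher, 58.5% held the GC box, against 66.8% of 10159 tested genes and 38.2% of all 27025 genes with a promoter. The E-box CATGTG was present in 20.8% of the higher genes, 10.6% of tested genes and 15.9% of all. The AP-1 motif was present in 13.2%, 6.05% and 8.97% in the same order, and the E-box CACGTG in 15.1%, 11.7% and 8.09%. The cAMP response element was in 0 of the 53 regions, against 3.60% of tested genes. These shares describe letters in a short window and were not tested.

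Among secreted and matrix proteins, the extracellular chaperone Clu (clusterin) showed the widest gap on genes measured on all 8 arrays. Its level was -0.98, -2.52, -1.78 and -2.85 on D replicates 1 to 4 and 1.15, 1.33, 1.49 and 1.43 on DB#1 replicates 1 to 4. The lines did not overlap, and the difference was 3.38 ± 0.41 (SE, n = 4 and 4, adjusted p = 1.19e-04, limma), or 10.4-fold. Clu was the single called gene among 11 tested members of the list of complement and extracellular chaperones, whose median difference was -0.00 against 0.05 over all genes tested.

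Gas6, the ligand of the TAM receptors Axl, Mertk and Tyro3, was at -4.81, -4.08, -0.68 and -3.73 on the D arrays and at 0.08, -0.24, -0.07 and -0.08 on the DB#1 arrays. D replicate 3 stood more than 3 log2 units above the other D arrays and still below every DB#1 array. The difference of 3.25 ± 0.61 (SE, adjusted p = 0.0108) became 4.13 without that array (adjusted p = 6.25e-06), and the call was lost without D replicate 1 (2.75, adjusted p = 0.0508) or D replicate 2 (3.00, adjusted p = 0.0581). Gas6 was above background on 3 of the 4 D arrays. Of its receptors, Tyro3 had a mean level of 3.40 ± 0.26 (SD, n = 4) in D and 3.99 ± 0.07 in DB#1, a difference of 0.59 with adjusted p = 0.0721 (0.0436 with slide as a block), and Axl differed by -0.12 ± 0.42 (SE, adjusted p = 1.00), with D arrays from -0.78 to 1.59. Mertk was above background on 3 D arrays and 0 DB#1 arrays and was not tested. Gas6 was the 1 called gene of 23 tested in the list of TGF-beta, BMP and dormancy regulators, whose median was 0.07 and whose lowest member was Tgfb1 at -0.63 (adjusted p = 1.00, and -0.88 to -0.08 over the fits that left out 1 array).

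Spp1 (osteopontin, a secreted matrix protein that binds integrins) lay between -2.76 and -1.90 on the D arrays and between -0.95 and -0.41 on the DB#1 arrays. The gap between the lines exceeded the spread within either, with a difference of 1.64 ± 0.25 (SE, adjusted p = 1.70e-03). Emilin1, an elastic-fibre glycoprotein, rose by less, 0.93 ± 0.19 (adjusted p = 0.0276), and its call was lost without D replicate 1, 2 or 4 or DB#1 replicate 1 or 3, with adjusted p from 0.0630 to 0.169 in those fits. Together they were the called members of 27 tested matrix and remodelling genes, which had a median of 0.08 and ran down to Col4a2 at -0.70 (adjusted p = 1.00), or -0.26 without D replicate 3. Hapln1, the link protein that joins hyaluronan to proteoglycans, went from -2.07, -0.68, -0.54 and -1.13 in D to 1.15, 1.47, 1.53 and 1.36 in DB#1. Those arrays did not overlap, yet its adjusted p of 0.0432 stood so near the threshold that leaving out any single array of either line lost the call (largest adjusted p 0.169). The secreted phospholipase Pla2g5 rose by 2.47 ± 0.32 (adjusted p = 1.92e-04), from a range of -2.19 to -1.38 in D to 0.63 to 0.75 in DB#1.

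C1ql3, a secreted C1q-like protein known from synapses, was above background on 1 of 4 D arrays and on all DB#1 arrays. Its D levels were -3.73, -5.96, -2.46 and -5.42 and its DB#1 levels -1.35, -1.47, -1.29 and -1.20, a difference of 3.07 ± 0.46 (SE, adjusted p = 1.04e-03). The D array on which it was measured was replicate 3, and without it C1ql3 was at least 6.86-fold higher in DB#1 (adjusted p = 7.96e-07).

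Fkbp10, a prolyl isomerase of the endoplasmic reticulum that assists collagen folding, was the 1 called member of 23 tested collagen chaperones and hydroxylases. It was measured at 1.49, 1.37, 0.67 and 1.03 in D and at 3.41, 2.74, 2.95 and 2.70 in DB#1. The difference of 1.81 ± 0.30 (SE, adjusted p = 3.81e-03) was 3.51-fold. Rcn3, a calcium-binding protein of the same compartment, was at 0.85 ± 0.20 (SD, n = 4) in D and 2.20 ± 0.10 in DB#1, and its difference of 1.35 ± 0.34 (SE) had adjusted p = 0.125. That call depended on the fit: it passed with slide as a block (adjusted p = 0.0365) and in the fit of the 8 arrays alone (adjusted p = 0.0134), while the mean over its 3 probes gave 0.78 (adjusted p = 1.00). The median over the list was 0.08, and its lowest member, Creb3l1, differed by -0.34 (adjusted p = 1.00).

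A second set of rises encodes proteins best known from immune cells. Cd72, a C-type lectin co-receptor of B cells, was at -0.81, -1.92, -2.54 and -2.48 on the D arrays and at 1.28, 1.21, 1.27 and 1.21 on the DB#1 arrays. The DB#1 arrays agreed to an SD of 0.04, and the difference was 3.18 ± 0.28 (SE, adjusted p = 1.05e-06), with 2.68 to 3.18 over its 2 probes. It was the called member of 13 tested immune ligands and receptors, a list with a median of 0.16. Sigirr, which restrains interleukin-1 and Toll-like receptor signalling, rose from -0.78, -1.31, -1.76 and -1.45 to a range of 1.40 to 1.61, by 2.84 ± 0.21 (SE, adjusted p = 1.06e-07). Arhgap45, a GTPase-activating protein abundant in blood cells, had D levels within 0.10 (SD) of their mean of -1.74 and a DB#1 mean of 1.30 ± 0.23 (SD), a difference of 3.04 ± 0.20 (SE, adjusted p = 2.01e-08). In the same vein, and chosen after their values were seen, the AP-1 family factor Batf rose by 1.99 ± 0.15 (SE, with a smaller adjusted p than Cd72), the necroptosis kinase Ripk3 by 1.75 ± 0.19 (adjusted p = 3.01e-05) and the T cell kinase Lck by 0.81 ± 0.13 (adjusted p = 2.21e-03).

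None of the blood cell markers tested was called. Of all genes tested 0.475% were called, so 0 is the usual count for lists this short. Of 12 general blood cell markers, 5 were tested and 0 called, with a summed linear level of 1.96 to 5.83 over the D arrays (at most 4.57 without D replicate 3) and 1.78 to 4.93 over the DB#1 arrays, and Ptprc (CD45) was above background on 0 of the 8 arrays. The B cell list had 2 of 6 tested and 0 called, with a summed level of 0.31 to 1.32 in D, or at most 0.68 without D replicate 3, and 0.40 to 0.69 in DB#1, and Ms4a1 (CD20) above background on no array of either line. For T and NK cells 3 of 7 were tested and 0 called, with sums of 2.54 to 6.80 in D, or at most 5.19 without D replicate 3, and 2.41 to 4.84 in DB#1. Microglia and macrophage markers had 4 of 12 tested and 0 called, with sums of 8.54 to 14.3 and 9.57 to 15.2, and Adgre1 was above background on no array.

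**Figure D2:**
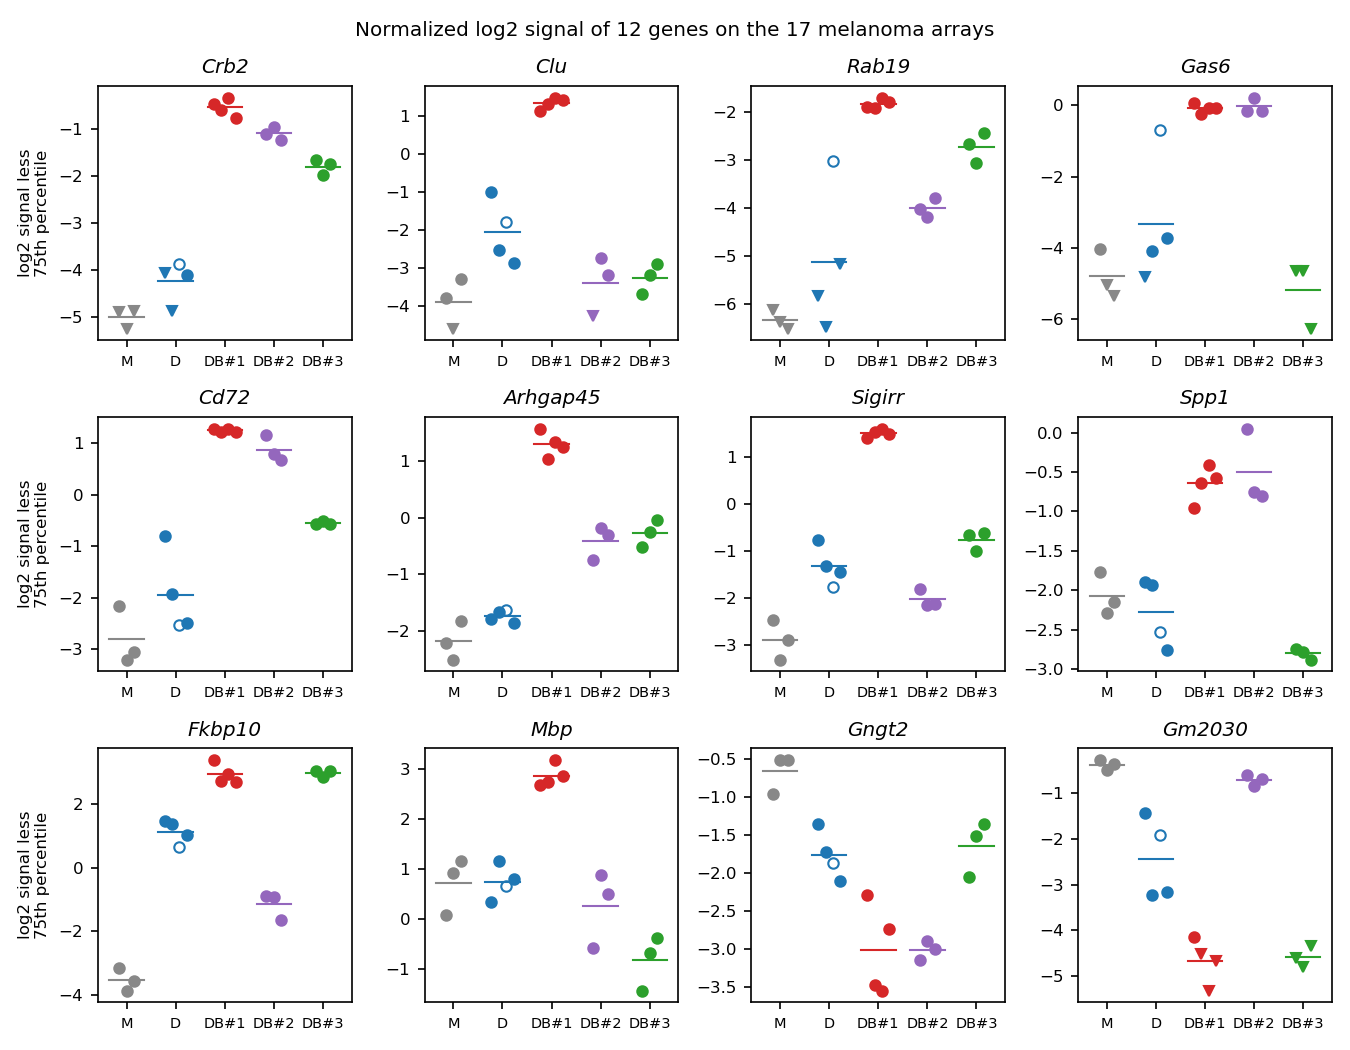
Normalized log2 signal of 12 genes on the 17 melanoma arrays, 1 panel per gene with its own vertical scale. Circles are arrays where the probe was well above background, triangles arrays where it was not, the open symbol is D replicate 3 and bars are line means. Clu, Sigirr and Arhgap45 are highest in DB#1 among the 5 lines, while Fkbp10 has a mean of 2.95 in DB#1 and 2.99 in DB#3.

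Membrane and trafficking genes made up the next group. Crb2, a transmembrane organiser of apical polarity, had the smallest adjusted p of the named rises, with D levels of -4.07, -4.87, -3.88 and -4.12 and DB#1 levels of -0.47, -0.60, -0.33 and -0.76. It was above background on 2 of the 4 D arrays, and the difference was 3.69 ± 0.18 (SE, adjusted p = 1.16e-10). Rab19, a small GTPase of vesicle traffic, was at -5.84, -6.48, -3.02 and -5.17 in D and between -1.91 and -1.69 in DB#1. Its difference was 3.31 ± 0.47 (SE, adjusted p = 5.27e-04). D replicate 3 was the only D array on which it was measured and the one nearest to DB#1. Without that array Rab19 was at least 4.89-fold higher in DB#1 (adjusted p = 9.48e-08). Kcnn4, a calcium-activated potassium channel, rose by 2.13 ± 0.27 (adjusted p = 1.92e-04), and Spint1, an inhibitor of the proteases that activate hepatocyte growth factor, by 2.22 ± 0.37 (adjusted p = 3.81e-03). The mean over the 3 probes of Kcnn4 did not pass (1.82, adjusted p = 0.0825).

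Other rises were of mixed kinds, and several dim ones were above background on D replicate 3 alone among the D arrays. These were Ptgfrn, a tetraspanin-associated membrane protein (2.16 ± 0.34, adjusted p = 1.97e-03), and Fitm1, which acts in lipid droplet formation (2.40 ± 0.40, adjusted p = 4.04e-03). So were Enpep, an aminopeptidase of the renin-angiotensin system (2.38 ± 0.53, adjusted p = 0.0447), and the predicted gene Gm15910 (2.59 ± 0.42, adjusted p = 2.89e-03). Without that array DB#1 was at least 1.92-fold higher for Ptgfrn, 1.88-fold for Fitm1, 1.90-fold for Enpep and 1.74-fold for Gm15910. With all arrays in the fit Enpep overlapped between the lines, since D replicate 3 was at -3.05 and DB#1 ran from -3.45 to -2.87, and its call was lost without any single array other than D replicate 3 (largest adjusted p 0.183). Capn6, a calpain without protease activity, was above background on 3 of 4 D arrays and rose by 2.37 ± 0.43 (adjusted p = 7.39e-03). Phf11d was above background on 0 D arrays and was at least 1.72-fold higher in DB#1 (adjusted p = 0.0177), a call lost without D replicate 2 or 4 or DB#1 replicate 1 or 2 (adjusted p 0.0591 to 0.0905). The uncharacterised 5033406O09Rik rose by 3.01 ± 0.32 (adjusted p = 1.71e-05).

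Mbp, the myelin basic protein gene, was at 0.34, 1.17, 0.67 and 0.80 in D and at 2.67, 2.73, 3.18 and 2.86 in DB#1. The arrays of the lines did not overlap, and the difference of 2.12 ± 0.39 (SE, adjusted p = 9.78e-03) was shared by its 3 probes, which ran from 1.91 to 2.38. Without DB#1 replicate 3 it was 2.01 with adjusted p = 0.0506. Mbp was the 1 called member of 3 tested oligodendrocyte markers, out of 7 listed. Mog, a glycoprotein of the myelin surface, differed by 0.13 (adjusted p = 1.00), while Olig1 and Olig2 were above background on 0 DB#1 arrays and on 1 D array. The summed linear level of the whole list, Mbp included, was 8.33 to 11.4 over the D arrays and 12.4 to 15.1 over the DB#1 arrays, and whether other cells had a part in the Mbp difference was not tested. Neuron markers had 2 of 9 tested and 0 called, with sums of 3.07 to 7.0 in D and 4.80 to 6.85 in DB#1, and astrocyte markers had 6 of 8 tested and 0 called, with sums of 23.9 (D replicate 3) to 49.4 and 29.4 to 34.5. Endothelial markers (2 of 7 tested, sums of 0.35 to 1.28 and 0.59 to 0.88) and fibroblast and pericyte markers (2 of 8 tested, sums of 0.86 to 1.80, or at most 1.24 without D replicate 3, and 1.03 to 1.45) also had 0 called. With 0.475% of all genes tested called, 0 is the usual count for so few markers. In RNA from a whole culture, fewer cells of a type and less RNA per cell cannot be told apart.

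The falls were fewer and dimmer. Of the 18, 9 had a gene symbol, and 6 were above background on every D array and on no DB#1 array. Gngt2, a gamma subunit of heterotrimeric G proteins, went from -1.35, -1.72, -1.87 and -2.11 in D to -2.29, -3.47, -3.55 and -2.74 in DB#1. It fell by 1.24 on the log2 scale (SE 0.23, adjusted p = 9.53e-03), and the call was lost without DB#1 replicate 2 (adjusted p = 0.0560) or 3 (adjusted p = 0.0529). It was the 1 called member of 23 tested G protein subunits, a list with a median of 0.05 in which Gng11 was the highest at 0.93 (adjusted p = 0.0537, and 0.0422 with slide as a block). Among 26 tested genes of glutathione and oxidative stress, Gstk1, a glutathione transferase of mitochondria and peroxisomes, rose by 1.36 ± 0.21 (adjusted p = 1.27e-03) and Gstt2, a theta-class transferase, fell by 1.19 (SE 0.26, adjusted p = 0.0432). The list's median was -0.10. Gstt2 lost its call without D replicate 1, 2 or 3 or DB#1 replicate 2, 3 or 4 (adjusted p 0.0707 to 0.190), whereas Gstk1 kept it in every fit that left out 1 array.

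Celsr1, an atypical cadherin of planar polarity, was at -3.34, -3.48, -2.84 and -4.13 in D and was not well above background on any DB#1 array, so it was at least 1.86-fold lower there (adjusted p = 7.66e-03). F11r, the junctional adhesion molecule JAM-A, was at 2.21, 1.12, 0.92 and 1.31 in D and from 0.08 to 0.47 in DB#1. It fell by 1.11 (SE 0.24, adjusted p = 0.0342), a call that was lost without D replicate 1 or 4 or any 1 DB#1 array (adjusted p 0.0636 to 0.148). Of the 20 tested integrins and cadherins, 0 were called, beside 0.475% of all genes tested. Their median was -0.06, and Itga7 was lowest at -1.01 (adjusted p = 0.792, and -1.20 to -0.44 over the fits that left out 1 array). Arfgef3 fell by 0.80 (SE 0.14, adjusted p = 6.84e-03). Susd1 fell by 0.76 (SE 0.17, adjusted p = 0.0486) and lost its call without D replicate 2, 3 or 4 or DB#1 replicate 1, 2 or 4 (adjusted p 0.0587 to 0.239).

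The remaining falls with a symbol were predicted genes. Gm2030, on chromosome X, was at -1.43, -3.22, -1.92 and -3.15 in D and from -5.33 to -4.15 in DB#1, where 1 of 4 arrays measured it, and the difference was -2.23 (SE 0.31, adjusted p = 4.01e-04). Gm10487, also on chromosome X, was measured on no DB#1 array and was at least 1.79-fold lower (adjusted p = 0.0432), a call lost without D replicate 1 or 2 or DB#1 replicate 3 or 4 (adjusted p 0.0737 to 0.170) and with slide as a block (adjusted p = 0.0613). Gm8032, on chromosome 14, fell by 1.55 (SE 0.21, adjusted p = 4.20e-04). D replicate 1 was the highest D array for all 3. Whether these probes also capture transcripts of similar genes was not tested.

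All 7 melanocyte markers (Tyr, Tyrp1, Dct, Pmel, Mlana, Sox10 and Mitf) were above background on all 8 arrays, with a mean level of 6.83 to 7.74 over the D arrays (7.38 or more without D replicate 3) and 7.40 to 7.56 over the DB#1 arrays. Of 19 tested pigment and melanosome genes, 0 were called, with a median of 0.11. Trpm1, a channel of melanocytes, was the lowest at -1.06 ± 0.55 (SE, adjusted p = 1.00), or -0.45 without D replicate 1. Its level was 4.11 on D replicate 1 and 1.49 to 1.95 on the other D arrays, against 0.99 to 1.37 in DB#1, and the mean over its 5 probes did pass (-1.15, adjusted p = 0.0402). The 15 tested melanoma state regulators (median 0.13), 17 stem-like state genes (0.08), 23 glycolysis genes (-0.00), 11 class I antigen presentation genes (0.15), 24 ATF4 amino acid stress genes (0.06), 19 unfolded protein response genes (0.10), 24 lysosome genes (0.09), 19 contractile genes (-0.02) and 13 hypoxia and angiogenesis genes (-0.01) held 0 called genes each. Since 0.475% of all genes tested were called, most lists of this size would hold 0. Differences were positive for 28 of 30 cell cycle genes, with a median of 0.14 and 0 called. They were positive for 21 of 25 sterol and fatty acid synthesis genes, with a median of 0.16 and 0 called, beside 12101 of all 20203 genes tested. In the fit without D replicate 3 those medians were 0.05 and 0.04, and that over all genes tested was -0.02. Epas1 was the highest hypoxia gene at 0.75 (adjusted p = 0.0519, and 0.0249 with slide as a block). A further list holds the transcripts of proteins that the study found changed in both dormancy models. The study chose them by protein level, in D against M and in its leukemia model, whereas the values here are RNA. DB#1 had no part in that choice, but D did, so the list is not independent. Of its 11 members, 0 were called, and the median was 0.08.

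**Figure D3:**
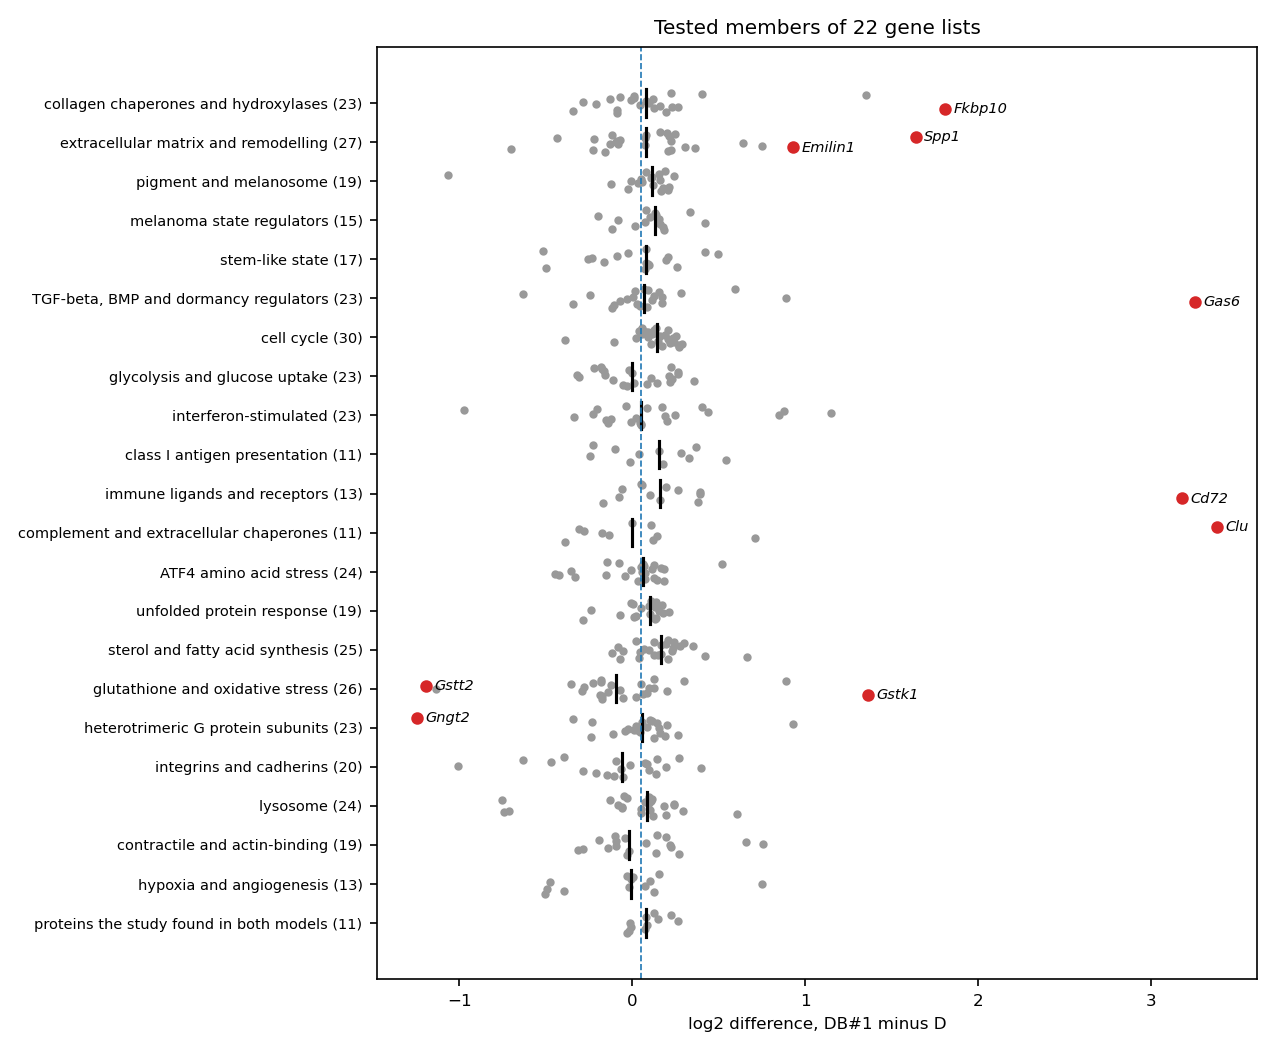
Log2 difference, DB#1 minus D, of the tested members of 22 gene lists, with the number tested in brackets. Red points are called genes, black bars list medians and the dashed line the median of all genes tested (0.05). The list medians lie between -0.10 and 0.16, and the called members are labelled.

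Genes of the interferon response gave a mixed picture. In the list 0 of 23 tested genes were called, with a median of 0.05, and the highest and lowest members were both of the OAS family of double-stranded RNA sensors, Oas1a at 1.15 (adjusted p = 0.0539) and Oasl1 at -0.98 (adjusted p = 1.00). Oas1a passed with slide as a block (1.23, adjusted p = 0.0171) and without D replicate 1 (adjusted p = 8.51e-05). It did not pass when any other single array was left out, and without D replicate 3 it was at 0.91 (adjusted p = 0.202). The lines overlapped for it, with D replicate 1 at 1.76 and DB#1 from 1.56 to 2.00. Oasl1 was at -0.02 and -0.16 on D replicates 1 and 3 and at -3.24 and -3.44 on the other D arrays, and its difference was -0.46 without D replicate 3 and between -1.55 and -0.41 over the fits that left out 1 array. Oas1f, which is outside the list and was chosen after its values were seen, was called at 1.35 ± 0.26 (SE, adjusted p = 0.0133). Its call was lost without D replicate 2 or DB#1 replicate 1, 2 or 4 (adjusted p 0.0560 to 0.0707). The mean level of Oas1f was 1.54 in M, -0.62 in D, 0.73 in DB#1, 2.95 in DB#2 and 0.34 in DB#3. That of Oas1a was 2.70, 0.66, 1.80, 4.19 and 1.29 in the same order. For these genes DB#1 thus lay above D and below M and DB#2. Oas2 and Oas1g differed by 0.88 and 0.43 (adjusted p = 1.00 for both) and were above background on 1 D array, replicate 3. Without that array Oas2 was at least 1.18-fold higher in DB#1 (adjusted p = 1.35e-03) and Oas1g at least 1.38-fold higher (adjusted p = 2.47e-03). On that array Oas2 was at -3.01, against -5.81 to -4.76 on the other D arrays.

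Leaving out D replicate 3 added other genes in the same way. Lpar4, a lysophosphatidic acid receptor chosen after its values were seen, was at -1.18 on D replicate 3 and from -6.77 to -5.80 on the other D arrays, against -3.10 to -2.51 in DB#1. Its difference was 2.23 (adjusted p = 0.555) with that array. No other D array read it above background, and without D replicate 3 it was at least 2.44-fold higher in DB#1 (adjusted p = 3.69e-07). Fstl3, a secreted binder of activin chosen likewise, was at 0.31 on D replicate 3, at -2.79, -4.49 and -4.58 on the others and from -1.04 to -0.09 in DB#1, with differences of 2.18 (adjusted p = 0.448) and 3.25 (adjusted p = 1.09e-04). In the lysosome list Mcoln1, an ion channel of that organelle, differed by -0.97 without the array (adjusted p = 9.07e-03) and by -0.75 with it (adjusted p = 0.178, and 0.0479 with slide as a block).

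**Figure D4:**
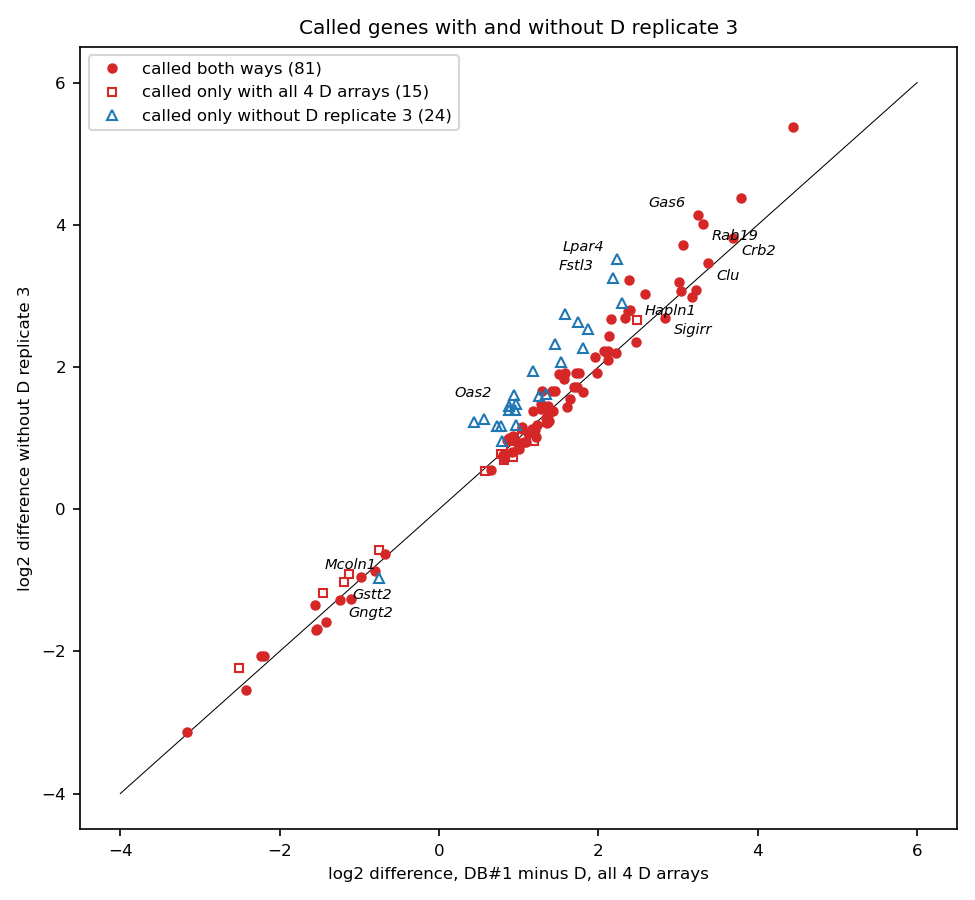
Log2 difference, DB#1 minus D, of called genes with all 4 D arrays (horizontal) and without D replicate 3 (vertical), with the line of equality. The 81 genes called both ways lie along the line, and the 24 called only without that array lie mostly above it. Where no other D array read a gene above background, its vertical position is against D signals at background.

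The arrays lay on 3 slides, and each slide held both lines, so the comparison could be made within a slide. Arrays of the 2 lines on the same slide shared their deviations from the line means to differing degrees, with a correlation across 15768 genes of 0.86 for D replicate 2 and DB#1 replicate 3 on slide 1 and of 0.10 for D replicate 3 and DB#1 replicate 1 on slide 2. With slide as a block 125 genes passed, 93 of them among the 96. The direction of the difference was kept within slide 1 for 96 of the 96, within slide 2 for 94 and within slide 3 for 96. Since the 96 were called on these same arrays, that agreement was largely set by the choice of genes and is no separate check. Slide 2 held D replicate 3 as its only D array, and there the difference was 0.77 for Gas6, 1.13 for Rab19 and -0.40 for Enpep, against 2.93 for Clu, 3.41 for Crb2, 3.81 for Cd72, 3.21 for Arhgap45 and 3.16 for Sigirr.

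**Figure D5:**
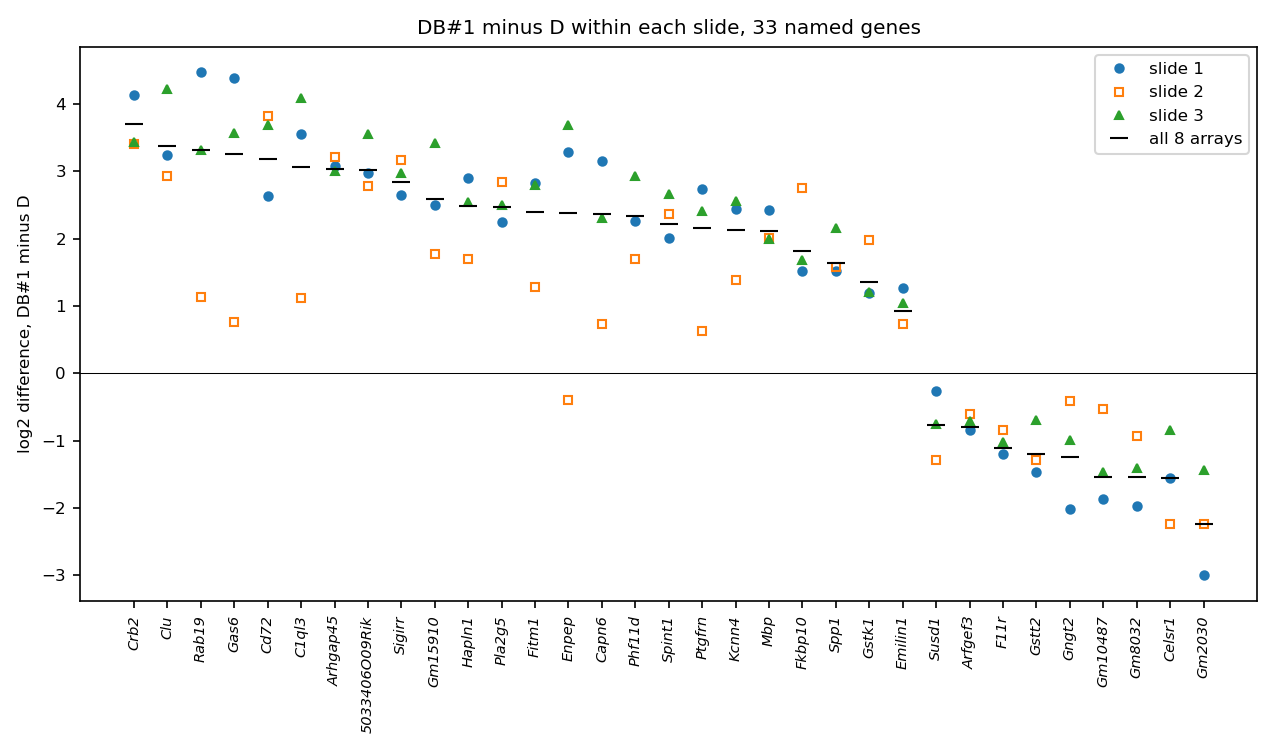
Log2 difference, DB#1 minus D, within each of the 3 slides for 33 named genes, with the difference over all 8 arrays as a bar. Slide 2 holds 1 array of each line and slides 1 and 3 hold 3 arrays each. Enpep on slide 2 (-0.40) is the one point on the other side of 0 among these genes.

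The other brain-derived lines show which of these levels DB#1 shared. They were compared with DB#1 directly, and since the comparisons share the DB#1 arrays their values are set side by side. DB#1 differed from DB#3 in 47 of 20556 genes (0.229%) and from DB#2 in 1152 of 21065 (5.47%). Clu was 4.60 ± 0.45 (SE) above DB#3 and 4.74 above DB#2 (adjusted p = 6.28e-06 and 4.46e-07). Sigirr was 2.27 above DB#3 and 3.54 above DB#2 (adjusted p = 8.04e-06 and 2.37e-09), and Arhgap45 was 1.57 and 1.71 above them (adjusted p = 6.41e-04 and 3.19e-05). Mbp exceeded DB#3 by 3.69 and DB#2 by 2.59 (adjusted p = 4.80e-05 and 5.10e-04). For these 4 genes DB#1 thus stood above D, DB#2 and DB#3 in each comparison.

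Other members were at a level close to that of 1 of these lines. Gas6 was 5.11 above DB#3 (adjusted p = 2.05e-04) and -0.05 from DB#2 (adjusted p = 0.995), with mean levels of -0.08 in DB#1, -0.03 in DB#2 and -5.19 in DB#3. Spp1 and Spint1 followed the same order, with 2.16 and 3.00 over DB#3 (adjusted p = 1.73e-04 and 3.29e-04) and -0.14 and -0.53 from DB#2 (adjusted p = 0.940 and 0.650). Fkbp10 showed the reverse, with -0.04 from DB#3 (adjusted p = 1.00) and 4.10 over DB#2 (adjusted p = 4.32e-08), and Hapln1 with 0.66 from DB#3 (adjusted p = 1.00) and 6.96 over DB#2 (adjusted p = 9.28e-08). Cd72 and Crb2 exceeded DB#3 by 1.80 and 1.26 (adjusted p = 5.38e-03 and 1.74e-03) and differed from DB#2 by 0.37 and 0.55 (adjusted p = 0.682 and 0.109). On the DB#3 arrays these genes still lay above every D array. Crb2 was at -1.99 to -1.66 there, against at most -3.88 in D, and Cd72 at -0.58 to -0.52, against at most -0.81. DB#2 and DB#3 were not tested against D here. Among the falls, Gngt2 differed from DB#3 by -1.37 (adjusted p = 0.0136) and from DB#2 by 0.00 (adjusted p = 0.998), while Gm8032 differed from DB#3 by -0.21 (adjusted p = 1.00) and from DB#2 by -3.10 (adjusted p = 1.72e-08).

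Against the levels of the parental line, the members fell into different orders. Fkbp10 had a mean of -3.53 in M, 1.14 in D and 2.95 in DB#1, and Hapln1 of -6.54, -1.10 and 1.38, so D lay between M and DB#1. Mbp was level in M and D, at 0.72 and 0.74, and Spp1 was at -2.07 and -2.28. Gm2030 descended from -0.38 in M through -2.43 in D to -4.66 in DB#1, and Gngt2 from -0.67 through -1.76 to -3.01. Among genes singled out by earlier results of these data, Ctf1, a cytokine of the interleukin-6 family, differed by 0.03 ± 0.15 (SE), Mgll, a monoacylglycerol lipase, by -0.10 ± 0.34, Hpse (heparanase) by 0.07 ± 0.32, Adssl1, an enzyme of purine synthesis, by 0.03 ± 0.38 and Kcnj13, an inward-rectifier potassium channel, by 0.18 ± 0.51, each with adjusted p = 1.00. Myl9, a myosin light chain, differed by 0.76 ± 0.26 (adjusted p = 0.621), with DB#1 replicate 1 at 2.36 and the other DB#1 arrays from 0.89 to 1.39.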

How the data were processed

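Total RNA of 7 mouse lines was labelled with cyanine 3 and hybridised to 24 single-colour Agilent arrays, and the deposited scanner tables hold intensity values per spot that the authors extracted with Agilent Feature Extraction 10.7.3.1. The deposited series table holds the same processed intensity (1511424 of 1511424 values equal), with no scaling between arrays. Control spots and spots with an outlier flag were left out, spots of a probe were averaged on the log2 scale and each array's 75th percentile was subtracted. Of 56605 probes, 117 were removed after this filter. Symbols came from RefSeq (GRCm38.p6) through unversioned accessions, which named 32917 of 56488 probes and gave 22881 symbols, and other probes kept the identifier in the file. A gene is represented by its probe that was brightest on average over the 24 arrays. A gene entered a test if all arrays of either compared line read it well above background (at least 0.5 of its spots). Of the spots that are not controls, 0 were saturated.

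limma 3.58.1 in R 4.3.3 was fitted over all 24 arrays with a term for each line (17 residual degrees of freedom), Benjamini-Hochberg adjustment was done separately for each comparison, and an adjusted p under 0.05 made a call. The precision is limited by the number of arrays. The code was tested on simulated data. The genes named are the 20 largest rises and the 9 falls with a symbol, called members of the gene lists, the extreme members of each list and genes that earlier results had singled out, and others are said to be chosen after their values were seen. The members and lists were chosen with earlier results of these data known. The normexp alternative (offset 50) used the median spot signal, since the tables here hold no mean spot signal. Replicate numbers did not mark arrays with shared deviations: the correlation of same-numbered D and DB#1 arrays over 15768 genes ran from -0.61 to 0.61. Some members of the lists are not reported here.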

Additional observations from a re-analysis of the deposited data

Results flagged for a closer look

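Of 88 groups of 4 arrays examined for the named genes and array measures, 4 held 1 array far from the other 3 (chance gives about 5%, or 4.4 groups). Gm10487 was at -2.42 on D replicate 1, against -3.94 to -3.74 on the other D arrays. Mgll was at 1.87 on D replicate 1, against -0.10 to 0.14, and its mean in M was 3.46. Adssl1 was at 2.61 on DB#1 replicate 1, against 1.57 to 1.67 on the other DB#1 arrays. Pla2g5 was at 0.75 on DB#1 replicate 2, against 0.63 to 0.65, a gap small beside its difference of 2.47 from D.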

How the results depend on the processing

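The count of 96 genes for DB#1 minus D stayed within 1.5 times in 19 of 23 alternatives. It was 58 without scaling, 34 in a fit of the 2 lines alone, 62 with genes above background on every array of both lines, and 178 with array weights, where D replicates 1 and 3 had weights of 0.27 and 0.19. Leaving out 1 array gave 70 to 105. The share of higher genes was 81.2%, and it was 91.9% after quantile normalization, 95.0% with normexp, 71.1% without a filter, 97.1% in the fit of the 2 lines alone and 69.7% without D replicate 4. Of the calls shared with the 96, 0 changed direction under any of them. Of the 96, 58 were called whichever single array was left out. For DB#1 minus DB#3 (47) the count was 23 with genes above background on every array of both lines and 518 with array weights, and leaving out 1 array gave 31 to 47, with 31 without DB#3 replicate 4 and 31 without DB#3 replicate 5. Its share of higher genes was 76.6%, and 90% without scaling. For DB#1 minus DB#2 (1152, 46.3% higher) it was 1365 without scaling (18.8% higher), 1762 with the percentile over probes above background on all arrays, 657 without a filter, 1965 with slide as a block, 4764 with array weights and 574 at 2-fold or more, and leaving out 1 array gave 629 to 872, the lowest without DB#2 replicate 2 (629) and DB#2 replicate 3 (664).

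With the replicate number of the labels as a block, DB#1 minus D called 92 genes, 81 of them among the 96, DB#1 minus DB#3 called 33 and DB#1 minus DB#2 called 1117. The labels give no sign that a number marks a shared culture or day, so the numbers do not pair the samples.

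Over 33 called genes and their alternatives, 576 of 713 values kept direction and call, 137 kept direction and lost the call and 0 reversed. Crb2, Clu, Cd72, Arhgap45, 5033406O09Rik, Sigirr, Pla2g5 and Gstk1 were called in every alternative run for them. Uncalled genes with a difference near 0 changed sign. With the percentile over probes above background on all arrays, Adssl1 was at -0.056, Ctf1 at -0.055 and Hpse at -0.014, and without scaling they were at -0.075, -0.074 and -0.033. Adssl1 was at -0.021 after quantile normalization and at -0.067 with array weights, Hpse was at -0.14 as a mean over its probes, and Mgll was at 0.12 with array weights and at 0.31 without D replicates 1 and 3 together, an alternative chosen after seeing the data. Leaving out 1 array gave -0.22 to 0.28 for Adssl1, -0.039 to 0.15 for Ctf1, -0.13 to 0.39 for Hpse, -0.29 to 0.36 for Mgll and -0.077 to 0.59 for Kcnj13. The cause was not tested.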
